A study of Mus musculus with 2 samples.

Results

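The vascular endothelial growth factor (VEGF) and angiopoietin genes Vegfa, Vegfb, Kdr, Flt1, Nrp1, Angpt1, Angpt2, Tek and Tie1 were described in heart sections of mice that lack PD1 or carry it on a single allele. They were chosen by symbol, and are 9 of the 32285 genes in the deposited tables. The PD1 KO group is 1 transverse heart section of a C57BL/6 PD1 -/- mouse. The PD1 Het group is 1 such section of a C57BL/6 PD1 +/- mouse. Both mice had their left anterior descending artery ligated at postnatal day 2, and both hearts were frozen 7 days later. Spatial gene expression (Visium) was measured, in which each barcoded spot of the slide captures RNA from a small region of the section that can hold several cells of different types. No uninfarcted heart and no PD1 wild type heart is among the samples analysed here.

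VEGF ligands are secreted proteins that act on receptor tyrosine kinases of endothelial cells. Vegfa is the main ligand of Kdr (VEGF receptor 2), through which it drives endothelial growth, survival and permeability. Flt1 (VEGF receptor 1) binds Vegfa and Vegfb, signals weakly as a kinase and limits the ligand that reaches Kdr, while Nrp1 is a co-receptor. The angiopoietins act on Tek (TIE2): Angpt1, made largely by perivascular cells, activates it and stabilises vessels, and Angpt2, made by endothelial cells of remodelling vessels, can oppose Angpt1. Tie1 is a related receptor that forms complexes with Tek and modulates its signal. In the heart, cardiomyocytes are a known source of Vegfa and Vegfb, and the receptors are known from endothelial cells.

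After spots with fewer than 500 unique molecular identifiers (UMIs, counts of captured molecules) were left out, 851 of 859 spots remained in the PD1 KO section and 811 of 812 in the PD1 Het section. The sections differed in depth, with 23520499 UMIs in PD1 KO and 12814494 in PD1 Het, and medians of 27134 and 15475 UMIs per spot. The mitochondrial share of UMIs was 15.9% in PD1 KO and 25.6% in PD1 Het. The tissue label was borne out by the ventricular cardiomyocyte markers, whose 12 genes summed to 79934 CPM (UMIs of the gene scaled to a common total) in PD1 KO and 80554 CPM in PD1 Het. Pdcd1, which encodes PD1, had 0 UMIs in both sections, so it could not check the genotype labels; with 3 counts as the limit that a count of 0 allows, its level was at most 0.128 CPM in PD1 KO and 0.234 CPM in PD1 Het. The sections share 225 spot barcodes.

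Promoter sequences are shown for 3 of the receptors, chosen because their levels differed in how they varied with scar matrix share. RefSeq (GRCm38.p6) promoter windows were found for 7 of the 9 genes. The lines give the 150 bases before the annotated start of Kdr (chr5:75978456-75978605, minus strand), Flt1 (chr5:147726012-147726161, minus strand) and Tek (chr4:94739139-94739288, plus strand), each read 5′ to 3′ on the strand of the gene. Capitals mark GGAA, the core of binding sites of ETS family transcription factors, on either strand (TTCC where it lies on the other strand).
Kdr: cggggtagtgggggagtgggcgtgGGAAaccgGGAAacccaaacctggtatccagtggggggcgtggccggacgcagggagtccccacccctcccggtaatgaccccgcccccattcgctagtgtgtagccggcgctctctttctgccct
Flt1: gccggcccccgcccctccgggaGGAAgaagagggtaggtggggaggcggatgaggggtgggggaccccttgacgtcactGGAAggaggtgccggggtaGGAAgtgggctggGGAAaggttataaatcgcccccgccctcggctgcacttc
Tek: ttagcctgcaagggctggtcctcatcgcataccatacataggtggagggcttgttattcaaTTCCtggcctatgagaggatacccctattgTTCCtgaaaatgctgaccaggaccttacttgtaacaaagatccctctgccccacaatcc
Over the 250 bases before the start, GGAA occurred 4 times for Kdr, 4 times for Flt1 and 2 times for Tek. It is a common word, present on either strand in 93.4% of 32851 promoter windows of that length, and 33.4% of windows had at least 4 matches. Tie1 had 7 matches, a count that 3.82% of windows reached. TATAAA, the classic promoter element bound by the general transcription machinery, was found in Flt1 (1 match, not overlapping GGAA) and in 12.4% of all windows. The printed stretch of Tek held 48.7% G and C bases, against 67.3% for Kdr and 68.0% for Flt1. A match is a description of the letters and not a binding site.

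With 1 section per group, differences between the sections have no replicate check and no test. The 95% intervals are exact, save those of a difference between the sections in a ratio of bins, which use a normal approximation, and all cover counting error only. The median gene was taken over 11455 genes whose UMIs, added over both sections, reached 100. It stood 0.33 higher in PD1 KO than in PD1 Het on the log2 CPM scale (1.26-fold). Ratios of the genes are therefore given relative to it, as the log2 ratio of PD1 KO over PD1 Het minus 0.33, with the CPM ratio where the direction differs. In such a section, fewer cells of a type and less RNA per cell cannot be told apart. All 9 genes reached 100 UMIs, and all are protein-coding; their coordinates are those of GENCODE vM21 on GRCm38.

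Vegfa and Vegfb, the ligands, parted between the sections. Vegfa (chr17:46016993-46032369) had 3517 UMIs in PD1 KO and 1247 in PD1 Het, which is 150 CPM (95% interval 145 to 155) and 97.3 CPM (92.0 to 103). Its ratio was 0.29 above the median gene (0.19 to 0.38), at percentile 80.5 of all genes compared. Vegfb (chr19:6982473-6987651), a ligand of Flt1 and Nrp1 that does not bind Kdr, had 5360 UMIs in PD1 KO and 2997 in PD1 Het, or 228 CPM (222 to 234) and 234 CPM (226 to 242). Its CPM ratio was 0.974, and on the log2 scale its relative ratio was -0.37 (-0.43 to -0.30). Taken within each section, where depth and scaling cancel, there were 0.656 Vegfa UMIs per Vegfb UMI in PD1 KO (0.629 to 0.685) and 0.416 in PD1 Het (0.389 to 0.445). That balance was 1.58-fold higher in PD1 KO, a log2 difference of 0.66 (0.54 to 0.77).

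Among the VEGF receptors, Nrp1 stood apart and the kinase receptors lay near the median gene. Kdr (chr5:75932827-75978458) had 3288 UMIs in PD1 KO and 1563 in PD1 Het, or 140 and 122 CPM. Flt1 (chr5:147561604-147726011) had 1404 and 610 UMIs in PD1 KO and PD1 Het, or 59.7 and 47.6 CPM. Their relative log2 ratios were -0.13 (-0.22 to -0.05) for Kdr, which was 0.20 higher in PD1 KO on the CPM scale, and -0.0049 (-0.14 to 0.13) for Flt1. The Flt1 to Kdr balance was 0.427 in PD1 KO and 0.390 in PD1 Het, and the interval of its log2 difference, -0.03 to 0.29, includes 0. Vegfa UMIs per UMI of Kdr plus Flt1 came to 0.750 in PD1 KO and 0.574 in PD1 Het, a log2 difference of 0.39 (0.27 to 0.51).

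Nrp1 (chr8:128358604-128503363) was the member whose level differed most between the sections. It had 236 UMIs in PD1 KO and 271 in PD1 Het although the PD1 KO library was deeper, which is 10.0 CPM (8.79 to 11.4) and 21.1 CPM (18.7 to 23.8). Its relative log2 ratio was -1.41 (-1.67 to -1.15), at percentile 0.105 of all genes compared, and 1.08 lower on the CPM scale. Per 1000 UMIs of 12 endothelial markers, Nrp1 had 2.99 UMIs in PD1 KO and 7.46 in PD1 Het. No single spot carried it, since the spot richest in Nrp1 held 3 UMIs in PD1 KO and 5 in PD1 Het. In spots thinned to 10000 UMIs Nrp1 was detected in 9.89% of 839 spots in PD1 KO (7.96 to 12.1) and 17.4% of 759 spots in PD1 Het (14.8 to 20.3).

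Some lymphatic endothelial markers were also lower in PD1 KO, and the list was mixed. Of all genes, 5.5% were at least 1.5-fold above and 3.3% at least 1.5-fold below the median gene in PD1 KO. Of 7 markers, 0 were at least 1.5-fold above and 4 at least 1.5-fold below the median gene in PD1 KO: Ccl21a, a chemokine of lymphatic vessels, with 39 UMIs in PD1 KO and 228 in PD1 Het, Mmrn1 with 15 and 38, Lyve1 with 47 and 59, and Reln with 41 and 43. Ccl21a has near-identical copies and 2 gene IDs in the tables, so its count is uncertain. Few spots carried these counts: Ccl21a was found in 15 spots of PD1 KO and 39 of PD1 Het, and its richest spot held 10 and 55 UMIs. Mmrn1 was found in 8 and 17 spots, with 5 and 8 UMIs in the richest. The other 3 markers, Prox1, Pdpn and Flt4, had relative log2 ratios of 0.48 (0.32 to 0.66), -0.12 and 0.18. The summed level of the list was 79.9 CPM in PD1 KO and 74.99 CPM in PD1 Het, and none of its genes was at 0. Prox1 alone gave 51.4 CPM of this sum in PD1 KO and 29.2 CPM in PD1 Het, so the sum does not show the 4 lower markers. Spots of each section were also ranked by the share of these markers in 5 bins of equal size. The log2 ratio of Nrp1 in the highest over the lowest bin was -0.57 (-1.19 to 0.04) in PD1 KO and -0.23 (-0.86 to 0.40) in PD1 Het. Prox1 held 1208 of the 1880 UMIs of the list in PD1 KO and 374 of 961 in PD1 Het. The ranking leans on this gene, so it cannot show whether Nrp1 lies with lymphatic vessels. The share of mitochondrial UMIs, given above, also differed between the sections. Nrp1 detection was therefore also taken with mitochondrial and red blood cell genes left out before thinning to 10000 UMIs. It was then found in 10.1% of 839 spots in PD1 KO (8.17 to 12.4) and 23.1% of 594 spots in PD1 Het (19.7 to 26.7). Beyond leaving these genes out, the part of the mitochondrial share in the result was not tested.

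Of the angiopoietin genes, Angpt1 (chr15:42424723-42676977) had 187 UMIs in PD1 KO and 120 in PD1 Het, or 7.95 CPM (6.85 to 9.18) and 9.36 CPM (7.76 to 11.2). Angpt2 (chr8:18690263-18741562) had 85 and 50 UMIs in PD1 KO and PD1 Het, or 3.61 CPM (2.89 to 4.47) and 3.90 CPM (2.90 to 5.14). These are the sparsest genes of the group, and their relative log2 ratios of -0.57 (-0.91 to -0.22) for Angpt1 and -0.44 (-0.96 to 0.09) for Angpt2 carry wide intervals. The balance of Angpt2 to Angpt1 was 0.455 in PD1 KO and 0.417 in PD1 Het. The interval of its log2 difference, -0.51 to 0.76, includes 0, and these counts could not show a difference. Angpt2 lies within Mcph1, on the opposite strand and with no shared exon bases, and Angpt1 shares 737 exon bases with the antisense gene Gm17473, which had 5 UMIs in PD1 KO and 3 in PD1 Het.

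The TIE receptors were both lower than the median gene in PD1 KO. Tek (chr4:94739289-94874976) had 1503 UMIs in PD1 KO and 752 in PD1 Het, or 63.9 and 58.7 CPM, and a relative log2 ratio of -0.21 (-0.34 to -0.08), while its CPM was 0.12 higher in PD1 KO. Tie1 (chr4:118471191-118490061) had 1955 and 1183 UMIs in PD1 KO and PD1 Het, or 83.1 and 92.3 CPM, and a relative log2 ratio of -0.48 (-0.59 to -0.38). Tie1 UMIs per Tek UMI came to 1.30 in PD1 KO (1.22 to 1.39) and 1.57 in PD1 Het (1.43 to 1.73), a log2 difference of -0.27 (-0.44 to -0.11). Of the 31-base words in the last 400 bases of the Tie1 transcripts, 10.3% also occur in other genes, against 0 to 1.22% for the other members, so a part of its count is uncertain.

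Over the 9 genes, the median relative log2 ratio was -0.37, against 0 by construction for all genes, whose 25th and 75th percentiles were -0.22 and 0.23. None of the 9 was at least 1.5-fold above the median gene in PD1 KO, where 5.5% of all genes were, and 1, Nrp1, was at least 1.5-fold below it, where 3.3% of all genes were. Vegfa was the only member above the median gene. On the CPM scale 4 members were higher in PD1 KO: Vegfa, Kdr, Flt1 and Tek.

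**Figure D1:**
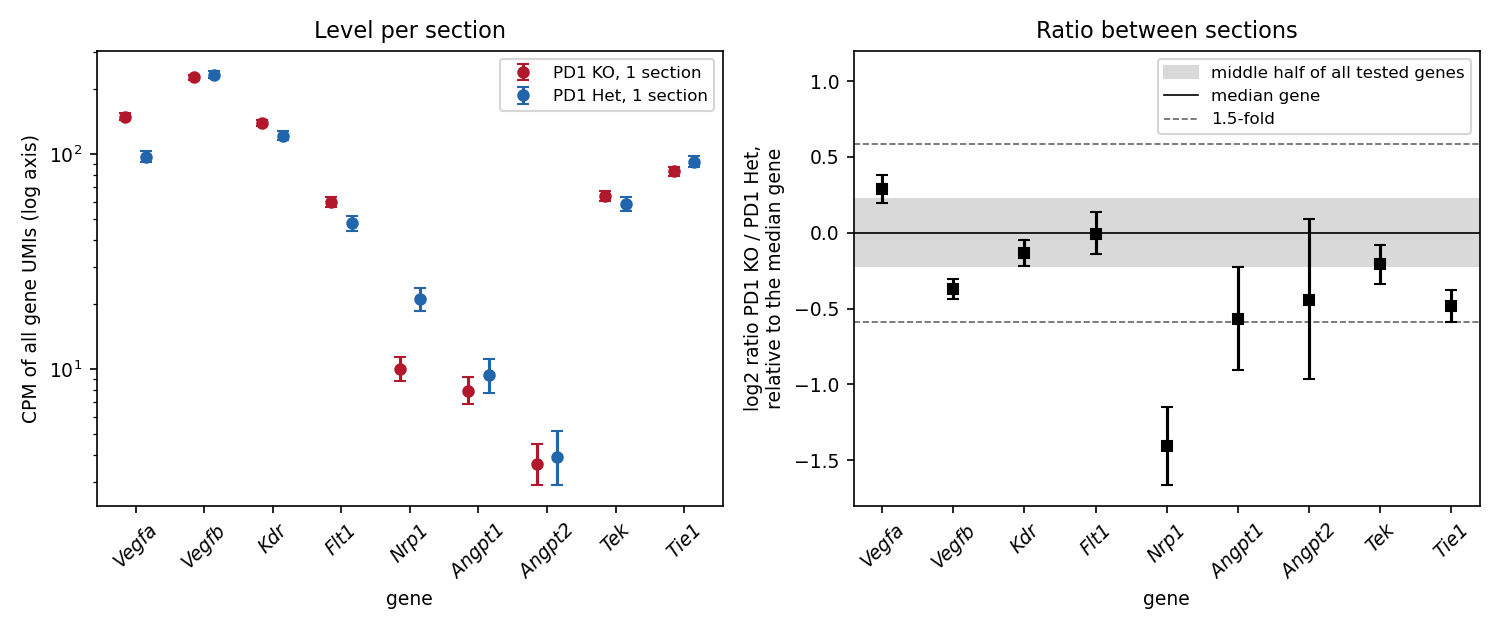
Left, level of each gene in CPM (log axis) in the PD1 KO and the PD1 Het section; right, log2 ratio of PD1 KO over PD1 Het relative to the median gene, with the range between the 25th and 75th percentile of all genes in grey and 1.5-fold as dashed lines. Bars are 95% counting intervals, and each point is 1 section. Vegfa lies above the grey band at 0.29 and Nrp1 lies far below it at -1.41; heights are to be read between sections and not between genes.

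Detection at equal depth follows the CPM scale and not the ratio to the median gene. After thinning to 10000 UMIs per spot, Vegfa was found in 75.8% of spots in PD1 KO (72.8 to 78.7) and 60.2% in PD1 Het (56.6 to 63.7). Vegfb was found in 90.0% and 90.1% of spots in PD1 KO and PD1 Het. The intervals of the sections overlapped for Kdr, with 73.5% and 70.1%, for Flt1, with 43.1% and 38.1%, for Tek, with 44.7% and 42.6%, and for Tie1, with 53.8% and 58.1%. When mitochondrial and red blood cell genes were left out before thinning, Tie1 was found in 61.4% of spots in PD1 KO (58.0 to 64.7) and 70.5% in PD1 Het (66.7 to 74.2), so its intervals no longer overlapped. Angpt1 was found in 6.91% of spots in PD1 KO and 9.22% in PD1 Het, and Angpt2 in 2.86% and 4.22%, again with overlapping intervals. Without thinning, the deeper PD1 KO section showed Vegfa in 96.8% of spots and Nrp1 in 21.9%, against 76.0% and 24.8% in PD1 Het.

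The location of ligands and receptors was set against scar matrix RNA, and no scar was outlined by position. Each section was split into 5 bins of equally many spots by the fraction of UMIs from 18 scar matrix genes. These are collagens, periostin and other matrix genes. In the highest bin the matrix genes took 2.43% of UMIs in PD1 KO and 1.53% in PD1 Het, and in the lowest bin 0.456% and 0.330%. Cardiomyocyte markers were fewer in the matrix-rich spots, at 6.26% of UMIs in the highest and 8.57% in the lowest bin of PD1 KO, and 6.89% and 8.37% in PD1 Het. Endothelial markers were at 0.270% of UMIs in the highest and 0.357% in the lowest bin of PD1 KO, and at 0.256% and 0.280% in PD1 Het. The median spot depth was also lower in the highest bin, at 22831 UMIs against 30307 in the lowest bin of PD1 KO and 13989 against 16043 in PD1 Het.

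Angpt2 was highest in the matrix-rich spots. Along bins 1 to 5 of rising matrix share it stood at 2.68, 1.61, 2.05, 3.89 and 9.15 CPM in PD1 KO, and at 1.47, 2.22, 2.64, 2.36 and 12.3 CPM in PD1 Het. The highest bin held 35 UMIs and the lowest 14 in PD1 KO, and 27 and 4 in PD1 Het, so the log2 ratio of the highest over the lowest bin was 1.77 (0.84 to 2.78) in PD1 KO and 3.06 (1.54 to 5.04) in PD1 Het. In both sections the level was low in bins 1 to 4 and high in bin 5. The median of all genes on this measure was 0.29 in PD1 KO and 0.39 in PD1 Het, so many genes were higher in the matrix-rich spots. The sign of the Angpt2 ratio was the same when spots were ranked by fibroblast markers, with 1.67 (0.73 to 2.69) in PD1 KO and 2.00 (0.80 to 3.37) in PD1 Het, or by endocardial markers, with 1.08 (0.01 to 2.23) and 1.37 (0.20 to 2.67). Spot depth moved with this result: ranked by depth alone, Angpt2 had a log2 ratio of the deepest over the shallowest bin of -1.29 (-2.35 to -0.25) in PD1 KO and -2.06 (-3.63 to -0.63) in PD1 Het, where the median gene stood at -0.30 and -0.33. The part of depth in the matrix result was not tested. Angpt1, the opposing ligand, had 25 UMIs in the highest and 57 in the lowest bin of PD1 KO, a log2 ratio of -0.74 (-1.48 to -0.04), and in PD1 Het 17 and 30 UMIs, a ratio of -0.51 (-1.46 to 0.39).

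The receptors differed in location. Kdr was lower in the matrix-rich spots, at 104 CPM in the highest and 149 CPM in the lowest bin of PD1 KO and at 101 and 124 CPM in PD1 Het, log2 ratios of -0.52 (-0.70 to -0.35) and -0.29 (-0.54 to -0.04). Tek was higher there, at 69.3 CPM in the highest and 56.7 CPM in the lowest bin of PD1 KO and at 82.7 and 49.3 CPM in PD1 Het, log2 ratios of 0.29 (0.04 to 0.53) and 0.75 (0.42 to 1.08). The difference between the sections in the Tek ratio was -0.46 (-0.86 to -0.06), and relative to the median gene of the bins the Tek ratio of PD1 KO was -0.0039 (-0.25 to 0.24) and that of PD1 Het 0.36 (0.03 to 0.69). Flt1, Tie1 and Nrp1 had intervals that include 0 in both sections, with 0.06, -0.01 and 0.28 in PD1 KO and 0.20, 0.23 and 0.25 in PD1 Het. Nrp1 was lower in PD1 KO in every bin, with 8.64 to 12.8 CPM there and 16.9 to 25.4 CPM in PD1 Het, so the ranges do not overlap. Endothelial markers also had a lower share in the highest bin. Alternative settings included counts per endothelial marker UMI. These gave Kdr a ratio of -0.11 in PD1 KO and -0.17 in PD1 Het, smaller drops than on the CPM scale. In PD1 KO they gave 0.70 for Tek, 0.47 for Flt1 and 0.41 for Tie1. How far endothelial content sets the receptor ratios was not tested. Over all alternative settings the Kdr ratio ranged from -0.81 to -0.11 in PD1 KO and from -0.68 to -0.17 in PD1 Het. The Tek ratio ranged from -0.13 to 0.70 in PD1 KO and from 0.36 to 1.19 in PD1 Het.

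The VEGF ligands were not raised in the matrix-rich spots. Vegfa stood at 132 CPM in the highest and 156 CPM in the lowest bin of PD1 KO, a log2 ratio of -0.24 (-0.40 to -0.08), and at 95.8 and 95.6 CPM in PD1 Het, a ratio of 0.0039 (-0.27 to 0.27). Vegfb stood at 181 and 246 CPM in PD1 KO, a ratio of -0.44 (-0.58 to -0.31), and at 221 and 236 CPM in PD1 Het, a ratio of -0.10 (-0.27 to 0.08). The Vegfb ratio of PD1 KO minus that of PD1 Het was -0.34 (-0.56 to -0.13). Vegfa was higher in PD1 KO than in PD1 Het in every bin, with 132 to 157 CPM against 93.2 to 105 CPM. With a 1.5-fold rule, 1 member (Angpt2) was higher and 1 (Angpt1) lower in the highest bin of PD1 KO, where 26.3% and 3.23% of all genes were. In PD1 Het 2 members (Angpt2 and Tek) were higher and none lower, where 35.6% and 2.79% of all genes were.

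**Figure D2:**
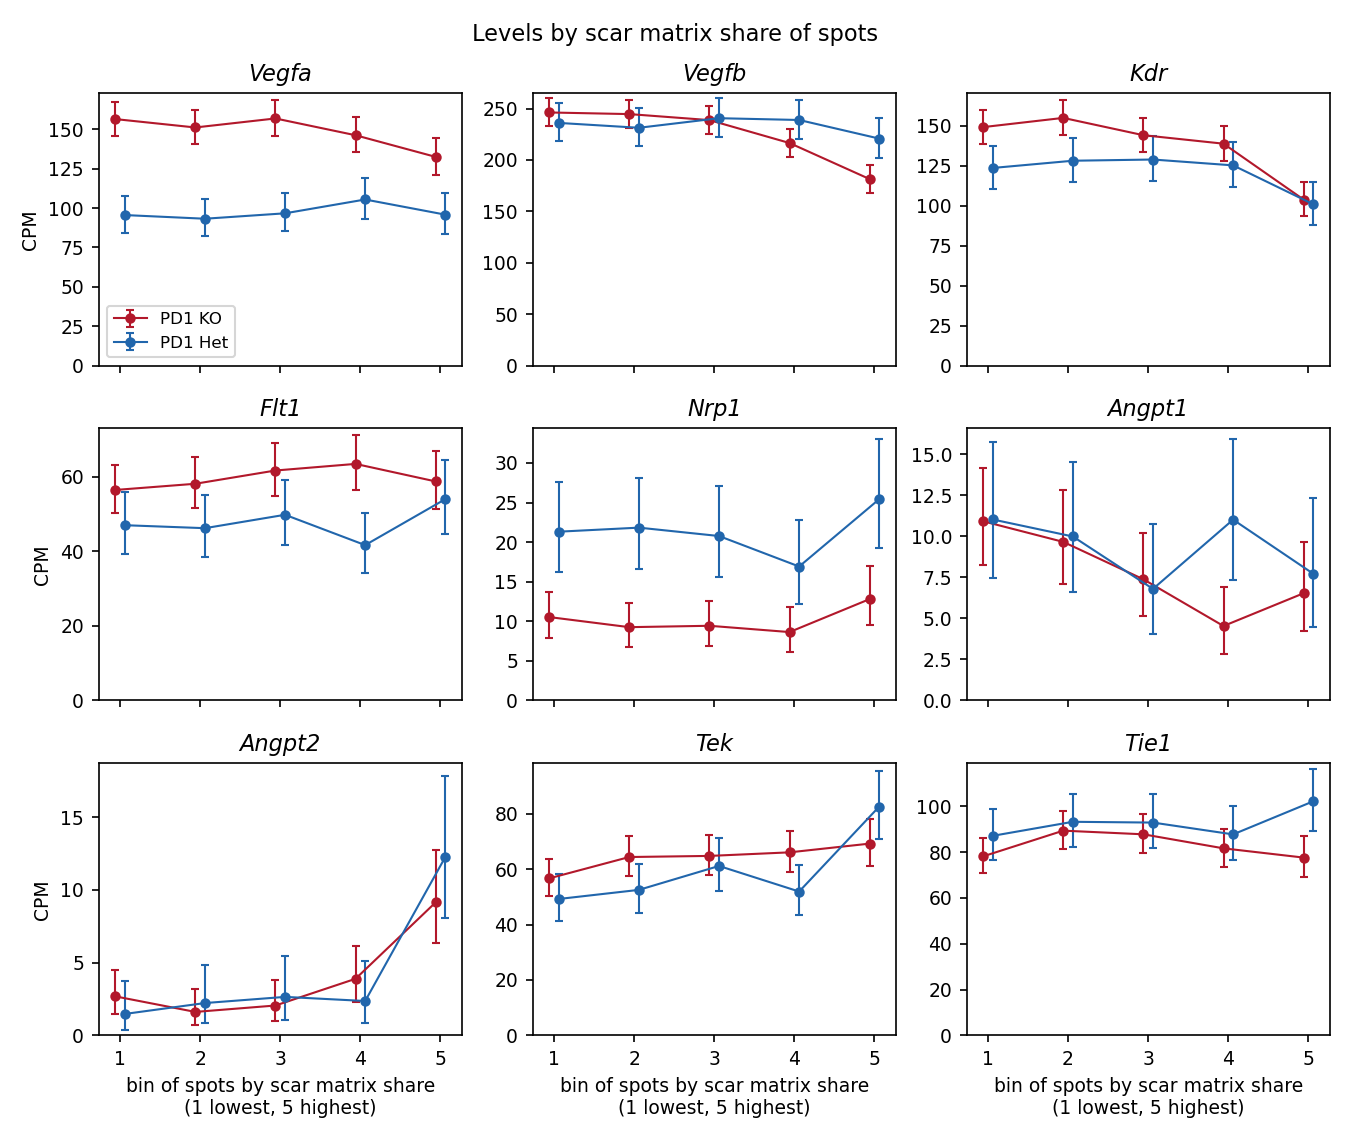
Level of each gene in CPM in 5 bins of spots ranked by scar matrix share (1 lowest, 5 highest), for the PD1 KO and the PD1 Het section, with 95% counting intervals as bars; each panel has its own scale from 0. Angpt2 reaches 9.15 CPM in PD1 KO and 12.3 CPM in PD1 Het in bin 5, Kdr is lowest there in both sections, and the Nrp1 lines of the sections do not meet.

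Spots were next ranked by endothelial markers, which are Pecam1, Cdh5 and 10 others, of which none is a member. In PD1 KO the highest over the lowest bin gave log2 ratios of 0.69 (0.52 to 0.86) for Kdr, 0.57 (0.33 to 0.82) for Flt1, 0.53 (0.29 to 0.78) for Tek and 0.77 (0.55 to 0.99) for Tie1. In PD1 Het the ratios were 0.32 (0.08 to 0.55), 0.41 (0.05 to 0.78), 0.39 (0.04 to 0.74) and 0.36 (0.08 to 0.63), so all 4 receptors were higher in the highest bin of this ranking in both sections. The differences between the sections, PD1 KO minus PD1 Het, were 0.37 (0.09 to 0.66) for Kdr and 0.41 (0.07 to 0.76) for Tie1. Nrp1 ran the other way, at 9.16 CPM in the highest and 14.6 CPM in the lowest bin of PD1 KO and at 16.3 and 26.2 CPM in PD1 Het, log2 ratios of -0.67 (-1.26 to -0.09) and -0.69 (-1.30 to -0.09).

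By the 1.5-fold rule, 2 members (Kdr and Tie1) were higher and 1 (Nrp1) lower in the highest endothelial bin of PD1 KO, where 5.32% and 6.62% of all genes were. In PD1 Het 1 (Angpt1) was higher and 2 (Nrp1 and Angpt2) were lower, where 9.31% and 7.96% were. Angpt1 had 24 UMIs in the highest and 13 in the lowest bin of PD1 Het, a log2 ratio of 0.85 (-0.18 to 1.95). Angpt2 had 8 and 12 UMIs there, a ratio of -0.62 (-2.11 to 0.79), so both intervals include 0. Fabp4 and Cd36, which capillary endothelium and other fat-handling cells express, hold most of the UMIs of this list. Without them, Kdr in PD1 Het stood at 0.11 (-0.13 to 0.34), Nrp1 at -0.42 (-1.02 to 0.17) in PD1 KO and -0.22 (-0.82 to 0.38) in PD1 Het, and Angpt2 in PD1 Het changed sign to 1.98 (0.63 to 3.57). Tek and Tie1 kept intervals above 0 in both sections without them and also with Pecam1 and Cdh5 alone, where Tek gave 0.43 (0.18 to 0.68) in PD1 KO and 0.60 (0.24 to 0.96) in PD1 Het, and Tie1 0.35 (0.14 to 0.56) and 0.42 (0.14 to 0.69). With Pecam1 and Cdh5 alone, Kdr gave 0.35 (0.19 to 0.52) in PD1 KO but -0.12 (-0.37 to 0.13) in PD1 Het, and Flt1 0.13 (-0.12 to 0.38) and -0.10 (-0.47 to 0.27).

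Ranked by ventricular cardiomyocyte markers, the muscle-rich spots had more of the VEGF ligands and of Kdr. Vegfa stood at 179 CPM in the highest and 127 CPM in the lowest bin of PD1 KO and at 119 and 86.8 CPM in PD1 Het, log2 ratios of 0.50 (0.34 to 0.66) and 0.45 (0.19 to 0.71). Vegfb gave 0.52 (0.38 to 0.65) in PD1 KO and 0.43 (0.26 to 0.60) in PD1 Het, and Kdr 0.75 (0.58 to 0.93) and 0.38 (0.15 to 0.61). Angpt2 was lower in the muscle-rich spots, at 1.91 CPM in the highest and 7.88 CPM in the lowest bin of PD1 KO and at 2.997 and 8.84 CPM in PD1 Het, log2 ratios of -2.04 (-3.30 to -0.94) and -1.56 (-3.02 to -0.29). Tek differed in sign from Kdr, with -0.10 (-0.35 to 0.14) in PD1 KO and -0.39 (-0.75 to -0.04) in PD1 Het. Tie1 was higher in the muscle-rich spots of PD1 Het, with 0.47 (0.20 to 0.75), but gave 0.12 (-0.09 to 0.34) in PD1 KO. The Tie1 ratio of PD1 KO minus that of PD1 Het was -0.35 (-0.69 to -0.01). Members past 1.5-fold were Kdr upwards and Nrp1 and Angpt2 downwards in PD1 KO, where 5.86% and 13.4% of all genes were, and Angpt2 downwards with none upwards in PD1 Het, where 12.6% and 10.2% were.

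Ranking by endocardial markers also split the receptors. Tek was higher in the endocardial-rich spots, with 0.39 (0.16 to 0.61) in PD1 KO and 0.75 (0.42 to 1.09) in PD1 Het, and Kdr was lower, with -0.40 (-0.57 to -0.23) and -0.37 (-0.61 to -0.14), while the median gene stood at 0.17 and 0.20. Ranking by 12 hypoxia target genes, none a member, left Vegfa, itself a known target of hypoxia-inducible factors, near the median gene. Its log2 ratio was 0.15 (-0.0049 to 0.31) in PD1 KO and 0.21 (-0.06 to 0.49) in PD1 Het, and the median gene stood at 0.17 and 0.13.

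**Figure D3:**
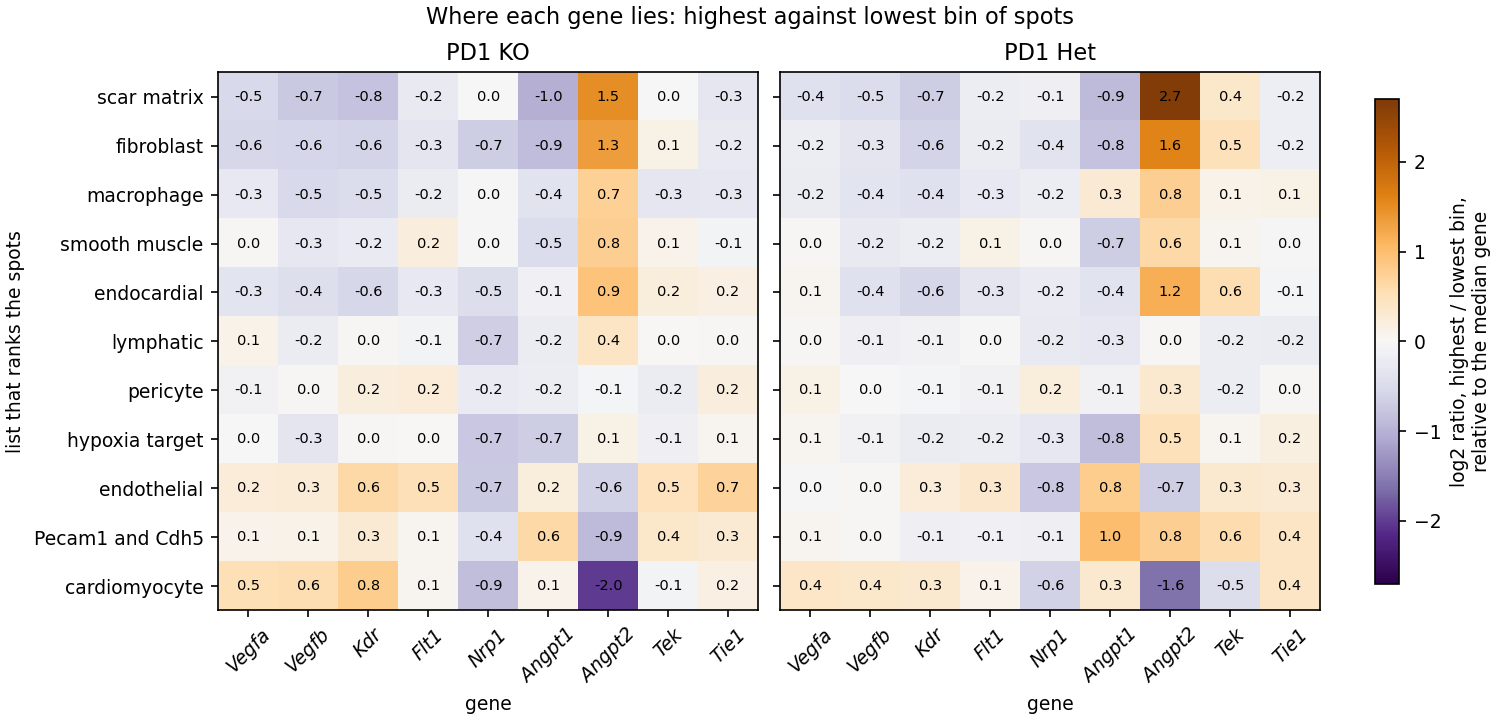
Log2 ratio of the highest over the lowest of 5 bins of spots for each gene (columns), minus that of the median gene, when spots are ranked by each of 11 marker lists (rows), in the PD1 KO and the PD1 Het section. Orange is higher and purple lower in the spots rich in the list. Angpt2 is orange for scar matrix, fibroblast and endocardial markers and purple for cardiomyocyte markers, and Kdr shows the opposite colours in those rows in both sections.

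Likeness between genes within a section was described over 32 pools of 25 to 27 spots with similar expression, with Pearson r of log2(CPM + 10). Pools of a section share a library and the grouping, so r is a description without a p. The equal pools were chosen after seeing the data, because the 40 k-means pools planned first held pools of 1 spot (10 in PD1 KO and 14 in PD1 Het), and several values changed sign between these poolings. Vegfb and Kdr kept a positive r, with 0.82 in PD1 KO and 0.58 in PD1 Het over the equal pools and 0.72 and 0.34 over the 40 pools. Tek and Tie1 did so too, with 0.63 and 0.57 over the equal pools and 0.18 and 0.69 over the 40 pools. Nrp1 and Vegfa had r of -0.69 in PD1 KO and -0.47 in PD1 Het over the equal pools, but 0.46 and 0.55 over the 40 pools. Angpt2 and Vegfb had -0.68 and -0.42 over the equal pools, but 0.36 and 0.36 over the 40 pools. Tek and Kdr had 0.31 and -0.28 over the equal pools, but 0.58 and 0.62 over the 40 pools. No likeness or opposition is therefore read from the last 3 pairs. Every pair of members had a positive r over the 40 pools in both sections. A positive value there is thus no check of Vegfb with Kdr or of Tek with Tie1. Over 20 k-means pools, Vegfb with Kdr had 0.96 in PD1 KO and 0.15 in PD1 Het, and Tek with Tie1 had 0.15 and 0.67.

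**Figure D4:**
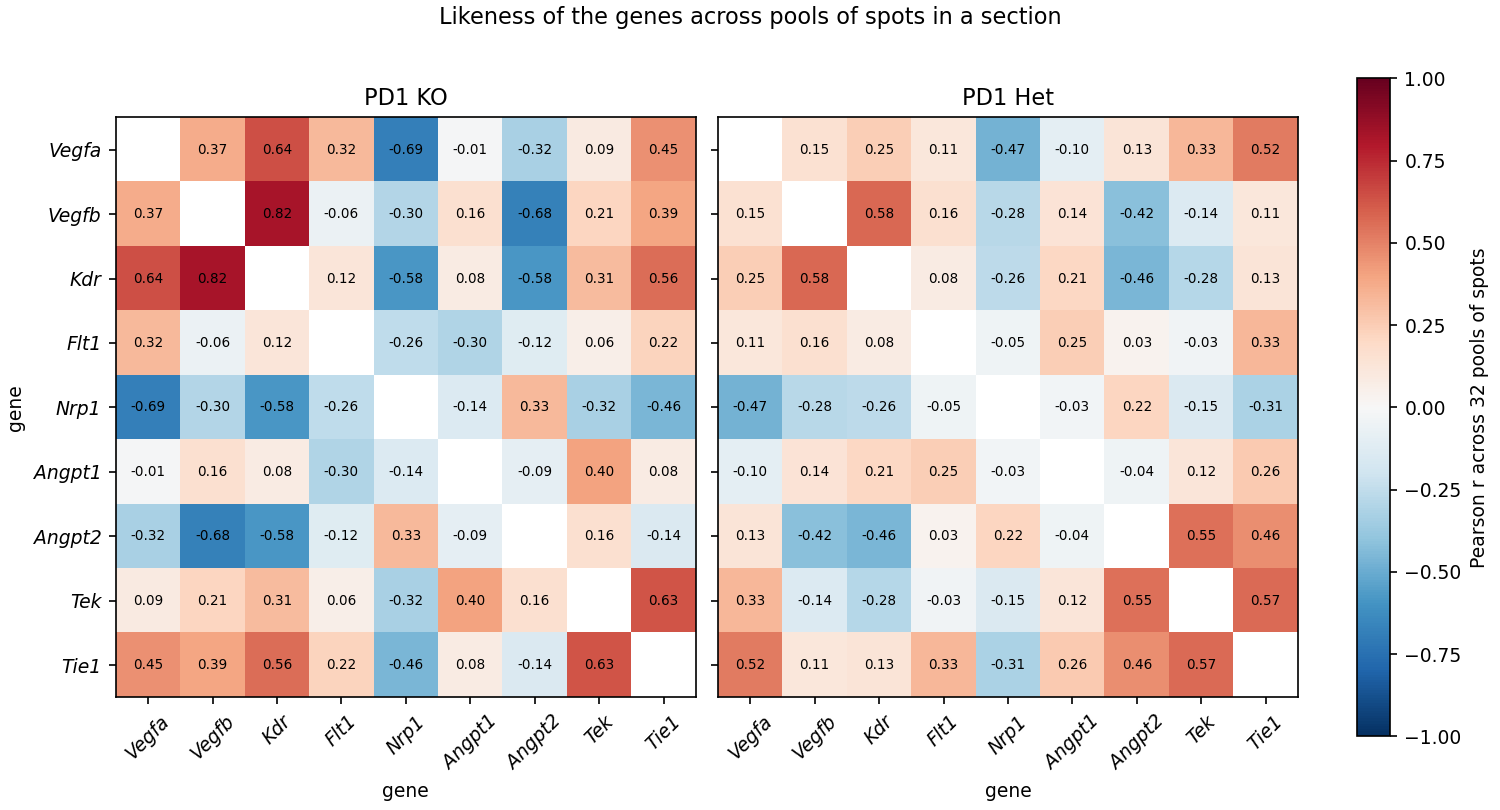
Pearson r between the 9 genes over 32 pools of spots in the PD1 KO and the PD1 Het section; red is alike, blue is opposed. The cells of Vegfb with Kdr (0.82 in PD1 KO, 0.58 in PD1 Het) and of Tek with Tie1 (0.63 and 0.57) are red in both sections. Over 40 k-means pools every pair was positive, also Nrp1 with Vegfa (0.46 and 0.55), whose cell is blue here (-0.69 and -0.47).

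Among 6129 genes with at least 200 UMIs in each section, those most like each member over the equal pools were ranked by the lower r of the sections. None of these names was also found over the 40 pools, so they hold for this pooling only. Vegfb was most like Mb (myoglobin), with 0.84 in PD1 KO and 0.80 in PD1 Het, then Ldhb and Atp5a1. Kdr was most like Ppif (cyclophilin D), with 0.82 and 0.74, then Acads and Sdha. Tek was most like Fabp5 (a fatty acid binding protein), with 0.78 and 0.81, then Cgnl1 and Ramp2. Tie1 was most like Oaz1, with 0.71 in PD1 KO and 0.65 in PD1 Het, then Plxnd1 (a semaphorin receptor of endothelium) and Vcp. Vegfa was most like Ly6c1, with 0.67 and 0.67, then Slc38a2 and Cox7a2l. Flt1 was like 2610507B11Rik, with 0.52 in PD1 KO and 0.47 in PD1 Het, and Atad1. Nrp1 was only weakly like Rplp0 and Prrx1, with a lower r of 0.34 for each. Angpt2 had too few UMIs for this rule and was looked at after its values were seen. It was most like Sfrp2 (a secreted Wnt modulator), with 0.80 in PD1 KO and 0.81 in PD1 Het, then Mfap4 (a matrix protein) and Csrp2. Angpt1, also too sparse, was most like Prcp with 0.40 and 0.42.

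Members were set against marker lists in the same way. Vegfb and the cardiomyocyte markers had r of 0.88 in PD1 KO and 0.78 in PD1 Het over the equal pools, and 0.48 and 0.60 over the 40 k-means pools. Tek and the endocardial markers had 0.45 and 0.63 over the equal pools, and 0.45 and 0.53 over the 40 pools. Angpt2 and the endocardial markers had 0.73 and 0.72 over the equal pools, and 0.40 and 0.47 over the 40 pools. These 3 were positive in both sections under both poolings. Over the 40 pools, however, every member had a positive r with the endocardial markers in both sections. Kdr was among them, with 0.22 in PD1 KO and 0.35 in PD1 Het, against -0.52 and -0.52 over the equal pools. The 40 pools are therefore no check of the endocardial values of Tek and Angpt2. Angpt2 and the scar matrix genes had 0.78 and 0.74 over the equal pools, but 0.08 and -0.09 over the 40 pools. Nrp1 and the endothelial markers had -0.57 in PD1 KO and -0.46 in PD1 Het over the equal pools, but 0.22 and 0.43 over the 40 pools.

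The other genes of the pathways were mostly near the median gene. Beside the counts given here and below, 5.5% of all genes were at least 1.5-fold above it and 3.3% at least 1.5-fold below it in PD1 KO. Of 5 other VEGF family genes, 0 were at least 1.5-fold above and 1 at least 1.5-fold below it in PD1 KO, with a median relative log2 ratio of 0.15. Vegfd, a ligand of lymphatic growth, was the lower one, with 5.44 CPM in PD1 KO and 7.49 CPM in PD1 Het and a relative log2 ratio of -0.79 (-1.19 to -0.40). Vegfc, the other lymphatic ligand, had 16.6 and 8.97 CPM in PD1 KO and PD1 Het, a ratio of 0.56 (0.25 to 0.87). Their receptor Flt4 stood at 0.18 (-0.11 to 0.48), Pgf, a ligand of Flt1, at -0.17 (-0.58 to 0.24), and Nrp2, the relative of Nrp1, at 0.15 (-0.01 to 0.32), with 47.8 CPM in PD1 KO and 34.2 CPM in PD1 Het.

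None of 7 measured partners of the angiopoietin and TIE pathway passed 1.5-fold in either direction, with a median of -0.08; Itgb1 (integrin beta 1) stood at 0.10, the flow-induced factor Klf2 at -0.13, Svep1, a ligand of Tie1, at -0.21, and Dok2, an adaptor of Tek, at -0.15. Foxo1, which the pathway restrains, and Ptprb, the phosphatase that acts on Tek, were at 0.01 and 0.03. None of 14 VEGF-induced and tip cell genes passed it either, with a median of -0.04. The apelin receptor Aplnr stood at -0.29 (-0.37 to -0.21), Rcan1 at -0.42 (-0.56 to -0.29), Cxcr4, the receptor of Cxcl12, at 0.55 (0.27 to 0.83), and the netrin receptor Unc5b at 0.35 (0.16 to 0.54). The Notch ligand Dll4 stood at 0.05, and Hes1 at 0.18.

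Of 8 regulators of the hypoxia response, 1 was above 1.5-fold and none below, where 5.5% and 3.3% of all genes were. Their median was -0.21. Arnt, the partner subunit of hypoxia-inducible factors, had 32.7 CPM in PD1 KO and 14.4 CPM in PD1 Het, a relative log2 ratio of 0.85 (0.61 to 1.09). Hif1a and Epas1, the oxygen-regulated subunits, were at 0.40 (0.30 to 0.50) and 0.27 (0.20 to 0.35), and the hydroxylase Egln2 at -0.37 (-0.50 to -0.23). Of 11 measured hypoxia targets, 1 was above and none below, with a median of 0.06: the glucose transporter Slc2a1, with 8.67 CPM in PD1 KO and 4.53 CPM in PD1 Het, a ratio of 0.61 (0.18 to 1.05). Bnip3, Pdk1 and P4ha1 stood at 0.41, 0.58 and 0.52, while Ndrg1 was at -0.39 (-0.60 to -0.18) and Egln3 at -0.28 (-0.48 to -0.08). Of 12 measured other angiogenic ligands and inhibitors, 1 was above and 1 below, with a median of 0.01. Thbs1, an inhibitor of vessel growth, had 33.8 CPM in PD1 KO and 11.5 CPM in PD1 Het, a ratio of 1.22 (0.96 to 1.48), and Sema3a, a semaphorin that binds Nrp1, had 43 and 29 UMIs, a ratio of -0.64 (-1.35 to 0.09). Thbs2, Col18a1 and Sema3c stood at 0.17, 0.05 and -0.35.

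The vessel cells that carry the receptors were described by their own markers. The same 1.5-fold rule was passed upwards by 5.5% and downwards by 3.3% of all genes. Of 12 endothelial markers, 0 were at least 1.5-fold above and 1 below the median gene, with a median of -0.14, and the list summed to 3352 CPM in PD1 KO and 2834 CPM in PD1 Het. The lower one was Eng, a co-receptor of TGF-beta in endothelium, with 118 and 154 CPM in PD1 KO and PD1 Het and a ratio of -0.72 (-0.80 to -0.63). Per 1000 UMIs of this list, Tie1 had 24.8 UMIs in PD1 KO and 32.6 in PD1 Het, a log2 ratio of -0.39 (-0.50 to -0.29). Kdr had 41.7 and 43.0, a ratio of -0.05 (-0.13 to 0.04). The Kdr value depended on the reference. Per 1000 UMIs of Pecam1 and Cdh5 alone, Kdr had 388 UMIs in PD1 KO and 446 in PD1 Het, a ratio of -0.20 (-0.29 to -0.11). Tie1 had a ratio of -0.55 (-0.65 to -0.44) by that reference. Of 7 pericyte markers none passed 1.5-fold, with a median of -0.07. Of 6 endocardial markers 0 were above and 2 below, with a median of -0.39: Npr3 at -0.77 (-1.04 to -0.49) and Cytl1 at -0.99 (-1.39 to -0.59).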

How the data were processed

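Visium libraries of 2 mouse heart sections were used. The deposited tables give unnormalized UMI counts for every gene in every spot. Per the file headers the software was Space Ranger 1.1.0. Builds named in the submitters' processing notes are mm10 and GRCm38; the annotation release is not given in the sources used. Spots with at least 500 UMIs were kept and summed per section, scaled to CPM on all gene UMIs, and set relative to the median gene. Intervals are exact Poisson (sums), binomial (Clopper-Pearson shares) and conditional (ratios) intervals at 95%, and cover counting error only. Spots are not replicates, so no test was run. A difference of 1.5-fold was used for counts of genes. The calculation of ratios and intervals was run on simulated Poisson counts. These hold counting error only, so they cannot show how far sections of 1 group vary.

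The 9 genes and 19 gene lists with 154 genes were chosen with earlier results of these data known. Genes named from a list are the 2 with the most UMIs and up to 3 with the largest relative log2 ratio among those with at least 30 UMIs, and Vegfc, Vegfd, Pgf, Flt4 and Nrp2; a few other list members were added after their values were seen. Genes most like a member were sought as planned over 40 k-means pools, of which 10 in PD1 KO and 14 in PD1 Het held 1 spot, so 32 pools of equal size, chosen after seeing the data, were used; some of the genes this ranking names are not reported here. GENCODE vM21 (GRCm38) gave positions for 32158 gene IDs. Spot positions were not used here. Alternatives included edgeR 4.0.16 TMM factors; numpy 2.4.6, scipy 1.17.1 and scikit-learn 1.9.0 were used in Python 3.11.15.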

Additional observations from a re-analysis of the deposited data

Results flagged for a closer look

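When spots were ranked by their own depth in UMIs, Vegfb was 0.25 higher on the log2 scale (0.12 to 0.39) in the deepest than in the shallowest of 5 bins of spots of PD1 KO, and -0.26 (-0.44 to -0.09) in PD1 Het, so the directions were opposite in the sections with both intervals off 0. The gap of 0.52 between the sections (0.30 to 0.74) was not tested. Over all genes the median on this measure was -0.30 in PD1 KO and -0.33 in PD1 Het.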

How the results depend on the processing

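No paired analysis was possible because each group has 1 section and the labels give no replicate numbers, and no section could be left out. Without centring on the median gene, the median log2 ratio of the 9 genes was -0.037 and 1 gene, Vegfa, was 1.5-fold above. Nrp1 stayed between -1.47 and -1.08 over its alternatives, and the pair balances stayed within their intervals under theirs. Counts past 1.5-fold between bins moved. By scar matrix in PD1 KO, higher counts were 2 with fibrillar collagens and 3 per endothelial UMI, and lower counts were 3 with 10 bins, 2 with shares taken without mitochondrial and red blood cell genes, 2 scaled without these and matrix genes, 0 per endothelial UMI and 3 relative to the median gene. In PD1 Het the higher count was 1 with 3 bins, with fibrillar collagens, with that scaling and relative to the median gene, and the lower count 1 with 10 bins, 1 with that scaling and 2 relative to the median gene. By endothelial markers in PD1 KO, higher and lower counts were 1 and 2 with 3 bins and 4 and 0 without Fabp4 and Cd36, and the higher count was 1 with Pecam1 and Cdh5 (an alternative chosen after seeing the data, like that relative to the median gene of the bins). In PD1 Het they were 0 and 0, 2 and 0, and 3 and 0 in the same order. Angpt2 in PD1 Het turned positive there, at 0.023, 1.98 and 0.79; the cause was not tested, and 8 UMIs lie in its highest bin. Of the 21 genes most like a member over 40 k-means pools, 3 were found again with 20 such pools and 0 with 32 equal pools. The r of Nrp1 with Vegfa was 0.46 in PD1 KO and 0.55 in PD1 Het over 40 pools and 0.52 and 0.54 over 20, but -0.69 and -0.47 over 32 equal pools, so names and signs of likeness depend on the pooling. Of values for single genes, 237 moved by less than their counting interval, 94 by more and 3 reversed. Depth limits Angpt1 and Angpt2 most.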
